A study of Homo sapiens with 9 samples.

Results

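ALL-SIL is an established human cell line of T-cell acute lymphoblastic leukaemia (T-ALL), a leukaemia of immature T cells. Its baseline transcriptome was read from the 3 libraries whose labels give a scrambled siRNA, a control with no intended target, out of 9 libraries in the series. The other libraries came from cells given siRNAs against TLX1 and were not used here, so no contrast was made. The control cells were electroporated with the scrambled siRNA at 400 nM and taken at 24 h, so the baseline is that of electroporated cells. Ribosomal RNA was removed from total RNA and the libraries keep the strand of each transcript, per the labels' protocols. All values describe 1 cell line, and no label says whether the 3 replicates came from separate cultures, so the spread between them may be technical.

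TLX1 is a homeobox transcription factor that the developing spleen needs and that normal T cells do not use. In a subgroup of T-ALL a chromosome rearrangement switches it on, and such leukaemias are known for an arrest at the cortical thymocyte stage and for mutations that activate NOTCH1. A thymocyte, the T-cell precursor of the thymus, loses the progenitor genes KIT and CD34, commits to the T lineage with BCL11B, and rearranges its receptor genes, with the alpha chain locus as the last. Cortical thymocytes carry CD1A, CD4 and CD8 together with the recombination enzymes RAG1, RAG2 and DNTT.

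The libraries held 21134650, 29813751 and 26130506 sense reads in genes for replicates 1, 2 and 3. A count of 0 allows up to 0.142, 0.101 and 0.115 CPM, a count scaled to 1000000 sense gene reads per library, with 3 counts as the limit; this covers counting error only. Replicate 1 stood apart: 39.9% of its reads fell in genes, against 57.5% and 52.7% in the others, and 14.4% of its reads mapped to several places, against 6.76% and 7.09%. Among 10491 genes with a mean count of at least 100, replicate 1 was more than 2-fold above the mean of replicates 2 and 3 in 468 genes (4.46%) and more than 2-fold below it in 87 genes (0.829%). Levels below are given by library or as a mean ± SD over the 3 libraries, which does not show the library that departed. Counts of detected genes in a list are also given without replicate 1 where that changes them.

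Levels are in TPM, a count divided by the gene's annotated exon length and scaled so that all genes of a library sum to 1000000. A gene is called detected at 1 TPM or more in all 3 libraries, so leaving out a library can only keep or raise such counts. By that rule 10143 of 19742 nuclear protein-coding genes were detected (51.4%), and the median of all of them was 2.10 TPM. These shares stand beside each gene list as its background.

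The 4 marker genes, TLX1, BCL11B, CD3E and NOTCH1, were all abundant. TLX1 (chromosome 10, plus strand) reached 247, 217 and 207 TPM in replicates 1, 2 and 3, a mean of 224 ± 20.5 (SD, n = 3) from 4420, 5581 and 4666 reads. It ranked 577th among nuclear protein-coding genes, and its 3 libraries lay close together. BCL11B, the factor that fixes T-cell identity, stood at 190, 153 and 167 TPM (170 ± 18.7). CD3E, a signalling chain of the T-cell receptor complex, read 287, 137 and 156 TPM (193 ± 82.1). NOTCH1, the receptor that drives T-cell commitment, read 327, 164 and 135 TPM (209 ± 104). For CD3E and NOTCH1 replicate 1 was high and the other libraries were alike, with means of 146 and 149 TPM without it, whereas TLX1 and BCL11B were at 212 and 160 TPM without it.

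TLX3, the closest relative of TLX1 in T-ALL and the driver of another subgroup, was listed at 4, 0 and 0 reads, and TLX2 at 0, 1 and 0. The promoters of the active and the inactive relative are shown because they share a short element. Each is the 250 bases before the RefSeq start in build GRCh38.p14, on the gene's strand, in lower case with matches to CCAAT or TATAAA in capitals, searched on both strands (ATTGG and TTTATA on the other strand). The TLX1 window is chr10:101131050-101131299, plus strand, and the TLX3 window chr5:171308998-171309247, plus strand. The TLX1 window lies inside the gene as annotated for its exon length, which begins at 101130505.
TLX1: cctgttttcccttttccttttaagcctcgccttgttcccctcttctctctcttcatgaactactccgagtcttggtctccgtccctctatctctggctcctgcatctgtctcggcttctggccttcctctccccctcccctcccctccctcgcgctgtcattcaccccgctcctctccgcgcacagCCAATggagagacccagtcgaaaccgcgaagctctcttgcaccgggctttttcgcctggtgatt
TLX3: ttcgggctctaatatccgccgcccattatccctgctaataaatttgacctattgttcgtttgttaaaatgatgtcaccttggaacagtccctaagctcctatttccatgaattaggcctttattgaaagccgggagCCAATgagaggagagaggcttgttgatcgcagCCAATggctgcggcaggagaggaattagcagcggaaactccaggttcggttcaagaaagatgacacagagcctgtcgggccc
The TLX1 window held 1 CCAAT, beginning 64 bases before the start, and the TLX3 window held 2, at 114 and 82 bases. Neither held TATAAA. The BCL11B and NOTCH1 windows held neither motif, and CD3E had no entry. CCAAT occurred in 33% and TATAAA in 11.1% of all 27305 RefSeq windows of this length.

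Genes of the T-cell surface and its receptor complex were read almost throughout: 19 of 20 were detected, 11 of them at 100 TPM or more in every library, and the list's median was 118 TPM. CD3D, another chain of the receptor complex, was the highest at 1072, 1487 and 1364 TPM. LCK, the kinase that starts receptor signalling, followed at 366, 365 and 339 TPM, and CD7, an early T-lineage marker, at 375, 334 and 294 TPM. PTPRC, the CD45 phosphatase of blood cells, stood at 303 ± 47.5, CD3G at 235 ± 55.7 and CD247, the zeta chain, at 189 ± 17.4 TPM. SH2D1A, a signalling adaptor, stood at 175 ± 43.6 TPM. The 3 lowest members, named after their values were seen, were CD2, LAT and CD27. CD2, an adhesion receptor, stood at 3.41, 5.55 and 8.31 TPM and LAT, the scaffold downstream of the receptor, at 6.03, 2.22 and 2.29 TPM. CD27, a co-stimulatory receptor, was under 1 TPM in replicate 1 only, at 0.947 against 1.32 and 3.44 TPM, so all 20 genes were detected without that library.

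Of 20 T-lineage transcription factors, 17 were detected, with a list median of 123 TPM. LEF1, a factor of the WNT pathway that acts in thymocytes, was the highest at 544, 384 and 471 TPM, and ETS1 stood at 372, 388 and 367 TPM. MYB, a proliferation factor of immature blood cells, stood at 253, 331 and 350 TPM. CBFB, the partner of RUNX proteins, stood at 240 ± 27.0 TPM, IKZF2 at 186 ± 22.4 TPM, and the E proteins TCF12 and TCF3 at 152 ± 16.6 and 137 ± 18.1 TPM. ETS1 varied least among these, while GATA3 and RUNX3, named after their values were seen, were high in replicate 1, at 125 and 139 TPM against 47.2 and 46.7 TPM in replicate 2. The other 3 act in other fates. ZBTB7B, which directs thymocytes to the CD4 helper fate, was listed at 0 in each library. BCL11A, a B-cell and progenitor factor, was listed at 10, 2 and 0 reads and TCF4, a factor of B and dendritic cells, at 8, 0 and 0 reads.

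**Figure D1:**
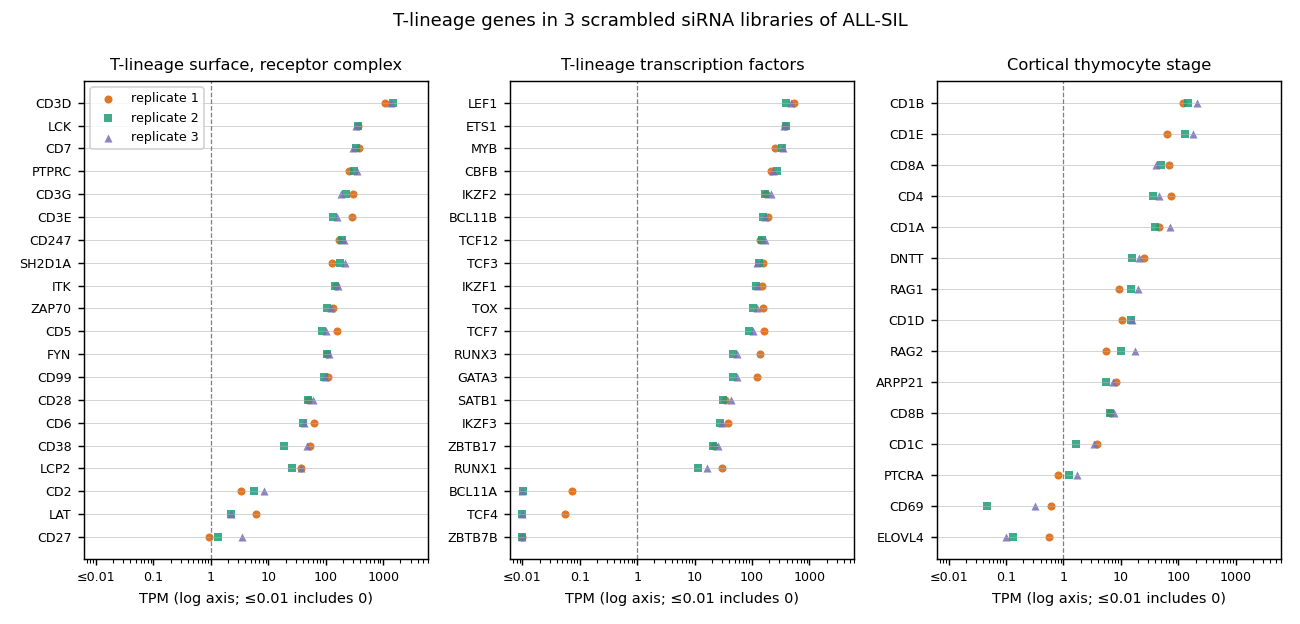
TPM on a log axis for the genes named on the axis, from the 3 T-lineage lists, with 1 point per library and a dashed line at 1 TPM; values at or under 0.01 are drawn at the left edge. CD3D and LEF1 head their lists, and ZBTB7B, TCF4 and BCL11A lie far below the line.

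Genes of the cortical thymocyte stage were present at mostly moderate levels. Of 16, 12 were detected, and 13 without replicate 1; the list's median was 12.3 TPM. CD1B, a lipid-presenting molecule of cortical thymocytes, was the highest at 119, 144 and 214 TPM, followed by CD1E at 63.1, 130 and 180 TPM. CD1A stood at 46.2, 39.1 and 71.4 TPM. The co-receptors CD8A and CD4 were read at nearly the same mean level, 53.3 ± 14.5 and 52.5 ± 19.9 TPM, while CD8B, which pairs with CD8A, stood lower at 6.83 ± 0.65 TPM and was named after its value was seen. DNTT, which adds bases at receptor gene joints, stood at 25.0, 15.7 and 21.0 TPM. CD1D stood at 13.6 ± 2.90 TPM. RAG1 and RAG2, the recombinase, were lowest in replicate 1 and highest in replicate 3: RAG1 stood at 9.25, 15.2 and 19.7 TPM and RAG2 at 5.61, 10 and 17.6 TPM. PTCRA, the pre-receptor alpha chain, lay at the limit with 0.817, 1.25 and 1.69 TPM; it and RAG2 were named after their values were seen. CD69, a marker of receptor stimulation, and ELOVL4 were under 1 TPM in every library, at 1 to 9 and 2 to 9 reads.

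Progenitor genes were mostly under 1 TPM. Of 15 genes of early progenitors and early T-cell precursors, 2 were detected and 7 had no read in any library: KIT, MEIS1, LMO2, CEBPA, HOPX, GATA2 and ERG. CD34, the stem-cell marker, was listed at 3, 1 and 1 reads. The detected genes were CD44, an adhesion receptor also carried by mature T cells, at 14.7, 14.4 and 12.8 TPM, and LYL1, a progenitor factor, at 7.40, 5.04 and 6.61 TPM. The list's median of 0.0108 TPM compares with 2.10 TPM over all nuclear protein-coding genes.

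Of 18 genes of mature T cells and of exit from the thymus, 13 were detected, with a median of 6.89 TPM. CXCR4, a chemokine receptor of thymocytes and leukaemia cells, stood at 395, 467 and 496 TPM, ITGA4, an integrin chain, at 276, 228 and 318 TPM, and CCR4, a chemokine receptor, at 212, 220 and 254 TPM. ICOS, a co-stimulator, stood at 115 ± 19.3 TPM. CXCR4, ITGA4 and CCR4 were above 100 TPM in each library, while ICOS was at 93.6 TPM in replicate 1. CD52, CCR7 and CXCR3 stood at 50.5 ± 4.13, 16.9 ± 4.98 and 7.69 ± 1.69 TPM. The receptors and factor for exit and survival, named after their values were seen, were low: S1PR1, the exit receptor, stood at 1.06, 2.04 and 4.41 TPM, KLF2, which activates it, at 1.99, 6.20 and 9.92 TPM, and IL7R at 6.42, 5.74 and 4.93 TPM. IL2RA, TBX21, CTLA4 and FOXP3, genes of activated, helper and regulatory T cells, were under 1 TPM in each library.

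The T-cell receptor constant genes were read at the delta, gamma and beta loci and hardly at the alpha locus. TRDC (chromosome 14, 22462932 to 22465787, plus strand), the delta constant gene, stood at 2651, 2948 and 2389 TPM, more than any gene of the T-cell surface list. TRGC2, a gamma constant gene, stood at 1030, 2166 and 2123 TPM and TRGC1 at 83.6, 135 and 126 TPM, replicate 1 being the lowest for both. TRBC2, a beta constant gene, stood at 460, 564 and 666 TPM and TRBC1 at 62.0, 34.2 and 46.7 TPM. TRAC, the alpha constant gene, was listed at 0, 0 and 3 reads, and 52 of 60 alpha joining genes had no read in any library. TRGC1 and TRGC2, and likewise TRBC1 and TRBC2, are near-identical copies, and reads that fit both are left out of gene counts, so each may be undercounted.

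Few variable (V) genes held most V reads at the gamma, beta and alpha loci. At the gamma locus TRGV7, annotated as a pseudogene, stood at 1484, 2458 and 2424 TPM and TRGV9 at 76.9, 148 and 170 TPM; the top 2 genes held 89.6%, 97.6% and 97.1% of gamma V reads. At the beta locus TRBV18 gave 694, 1049 and 960 reads and TRBV7-9 gave 533, 999 and 976, together 79.8%, 85.2% and 85.5% of beta V reads. At the delta locus, with only 3 annotated V genes, TRDV2 gave 159, 406 and 362 reads and TRDV1 gave 39, 140 and 124. TRDV3 had a total of 2 reads. Alpha V reads were present although TRAC was not: TRAV30 gave 256, 558 and 628 reads and TRAV22 gave 76, 126 and 201, together 92.7%, 93.7% and 90.9% of alpha V reads. Reads of a V gene show that its region was transcribed and not that it was joined to a constant gene, since the counts hold no junctions. All T-cell receptor genes together took 0.119%, 0.174% and 0.167% of sense gene reads, with 95% Wilson intervals of 0.118% to 0.121%, 0.172% to 0.175% and 0.166% to 0.169%. These intervals cover counting error only, and the SD between libraries was 0.0297 percentage points.

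Among 22 transcription factors that drive subgroups of T-ALL, 5 were detected: MYC, MYB, TLX1, LYL1 and TAL2. MYC, a transcription factor of cell growth that NOTCH1 activates in T-ALL, stood at 347, 510 and 351 TPM. TAL2 was at the limit, with 1.75, 1.62 and 1.16 TPM from 6, 8 and 5 reads. MYB and LYL1 are also in the lists above. TAL1, LMO1, LMO2, NKX2-1, NKX2-2, NKX2-5, HOXA9, HOXA10, OLIG2, MYCN and TCL1A had no read in any library, which makes 11 of 22. The list thus held 3 abundant genes, with TLX1 as the only homeobox gene among them.

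The homeobox genes of the HOX clusters were mostly unread. Of 39 HOX genes 4 were detected, all in cluster A, and 26 had no read in any library, including all 10 of cluster B. HOXA5 stood at 9.39, 8.27 and 9.51 TPM, HOXA6 at 4.45, 5.29 and 8.38 TPM and HOXA7 at 3.17, 1.6 and 1.51 TPM. The highest of them lay far below TLX1 at 224 TPM. HOXA9 and HOXA10, which lie beside HOXA7 and mark another T-ALL subgroup, were listed at 0 in each library. Each overlaps 2 annotated genes on the same strand, and reads that fit overlapping genes are left out of gene counts, so each may be undercounted.

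**Figure D2:**
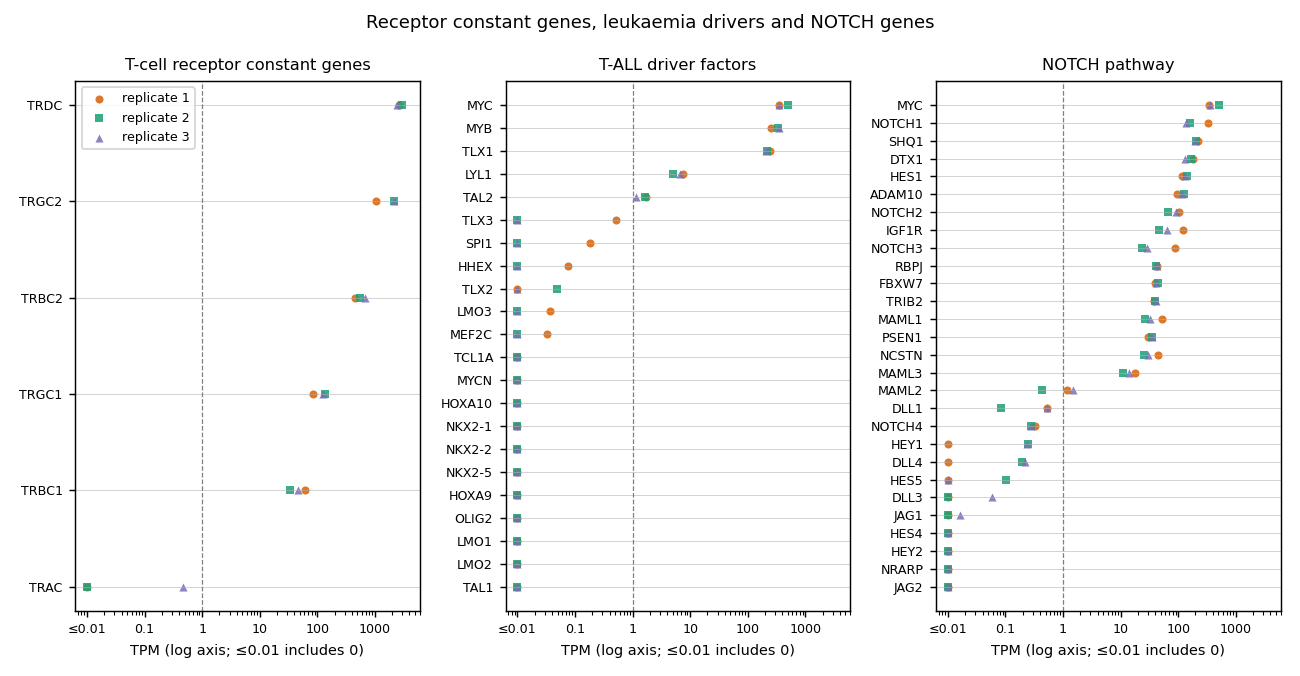
TPM on a log axis for each T-cell receptor constant gene, T-ALL driver factor and NOTCH pathway gene, with 1 point per library and a dashed line at 1 TPM; values at or under 0.01, among them 0, are drawn at the left edge. TRAC lies below 1 TPM while TRDC is the highest gene drawn, and MYC, MYB and TLX1 stand apart from the other driver factors.

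The NOTCH pathway was read at the level of receptor, processing and several targets, and not of ligands. NOTCH receptors are cut by ADAM10 and by gamma-secretase, and the freed part binds RBPJ and MAML proteins at target genes. Of 28 genes 16 were detected, a share of 57.1%, which is near the 51.4% of all nuclear protein-coding genes; the median was 33.2 TPM. NOTCH2 stood at 104, 66.6 and 90.1 TPM and ADAM10 at 97.4, 124 and 115 TPM. Among targets, DTX1, an E3 ligase, stood at 184, 165 and 130 TPM, HES1, a repressor, at 118, 142 and 131 TPM, and SHQ1, a ribonucleoprotein assembly factor, at 220, 205 and 199 TPM. IGF1R, a growth factor receptor, stood at 119, 47.1 and 62.9 TPM, again with replicate 1 as the high library. The ligands DLL1, DLL3, DLL4, JAG1 and JAG2 were all under 1 TPM, with at most 11 reads in any library. HES4, HEY2 and NRARP, also NOTCH targets, were listed at 0 in each library.

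All 25 genes of kinase and cytokine signalling were detected, with a median of 72.9 TPM. ALL-SIL is known to carry a fusion of NUP214 and ABL1, a constitutively active kinase. ABL1 stood at 242, 97.0 and 119 TPM and NUP214, named after its value was seen, at 131, 42.3 and 58.6 TPM, with replicate 1 high for both; gene counts do not separate the fusion from the intact genes. Beside them, ABL2, a kinase related to ABL1 and also named after its value was seen, stood at 15.3 ± 3.42 TPM. PIM1, a survival kinase, stood at 451, 367 and 323 TPM and CISH, a feedback inhibitor, at 324, 240 and 214 TPM. IL2RG, the common cytokine receptor chain, stood at 333, 123 and 140 TPM, STAT5B at 120 ± 9.19 TPM, PIK3CD at 120 ± 27.1 TPM and JAK1 at 95.7 ± 8.23 TPM. All 25 had a mean count of at least 100, and their transcripts had a median GC content of 56.7%. That lay above the 47.3% of the 9459 nuclear protein-coding genes past the same count minimum. The list's median log2 ratio of replicate 1 to the others was 0.37.

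Of 22 T-ALL tumour suppressor genes 20 were detected, and the exceptions were neighbours on chromosome 9. CDKN2A, the inhibitor of CDK4 and CDK6 that also encodes p14ARF, was listed at 10, 0 and 0 reads, and CDKN2B, a second inhibitor, at 0 in each library. MTAP, a nearby gene that tumours often lose with them, gave 501, 660 and 643 reads, a mean of 6.41 ± 0.349 TPM, and was named after its value was seen. CDKN2B-AS1, the RNA transcribed across CDKN2B on the other strand, was listed at 6, 0 and 0 reads, so both of these low counts lay in replicate 1. The ribosomal protein genes RPL5 and RPL10 headed the list at 870 ± 286 and 610 ± 38 TPM, and USP7 stood at 225 ± 18.6, EZH2 at 208 ± 19.1, CDKN1B at 175 ± 58.7, RB1 at 122 ± 3.17 and SUZ12 at 122 ± 23.9 TPM.

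Genes of other blood lineages and of other tissues were mostly under 1 TPM. None of 14 myeloid and dendritic genes and none of 10 erythroid and megakaryocytic genes was detected; their summed levels ranged from 0.644 to 1.03 TPM and from 0.0960 to 0.463 TPM over the libraries. CD33, ELANE, GATA1, HBB and PF4 had no read. Of 11 NK and cytotoxic genes only NKG7, a granule membrane protein, was detected, at 821, 759 and 687 TPM, while KLRB1, NCAM1, KLRF1, NCR1, GZMA and GZMK had no read. PRF1 and GZMB, the killing proteins perforin and granzyme B, passed 1 TPM in replicate 3 only, at 1.26 and 1.08 TPM, and were named after their values were seen. Of 11 stromal, epithelial and endothelial genes only PECAM1, which leukocytes also carry, was detected, at 49.9, 49.7 and 46.8 TPM; CDH5 and VWF, which define endothelium, had no read.

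The B-cell list had 4 of 12 genes detected. IGLL1, a part of the surrogate light chain, stood at 30.8, 22.7 and 20.6 TPM. CD79A, a signalling chain of the B-cell receptor, stood at 25.9, 13.6 and 13.4 TPM. CD79B stood at 5.41, 9.86 and 13.6 TPM and IGHM at 1.84, 1.92 and 1.54 TPM. VPREB1, another part of the surrogate light chain, was listed at 1, 0 and 3 reads, under 1 TPM in each library. CD79A was highest and CD79B lowest in replicate 1. PAX5, which defines B cells, was under 1 TPM in each library, EBF1 was listed at 5, 0 and 0 reads, and MS4A1, CD22 and IGKC had no read. In a bulk library a few cells at a high level and all cells at a low level cannot be told apart.

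**Figure D3:**
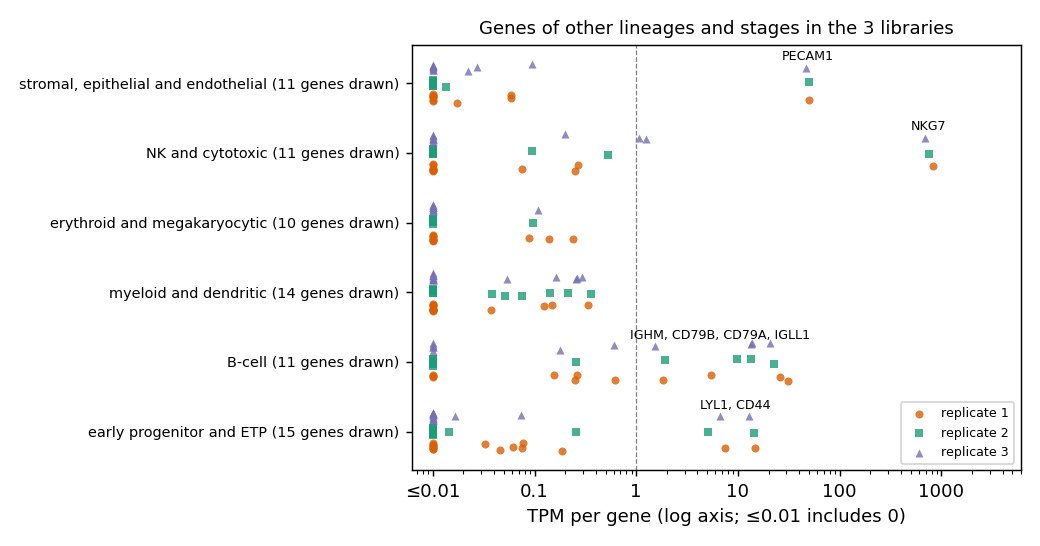
TPM on a log axis for the genes drawn from 6 lists of other lineages and stages, 1 point per gene and library, with genes of a mean of at least 1 TPM named in order of level. NKG7 and PECAM1 stand alone in their lists, and no myeloid or erythroid gene reaches the dashed line at 1 TPM.

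Of 20 cell cycle genes 17 were detected, and 18 without replicate 1. In every library 14 of them stood at 100 TPM or more, and the list's median was 194 TPM. PCNA, the replication clamp, stood at 1302, 1439 and 1547 TPM, TOP2A, the mitotic topoisomerase, at 844, 1449 and 1049 TPM, and CDK6, the kinase of G1 in T-lineage cells, at 875, 920 and 956 TPM. MCM2, a part of the replicative helicase, stood at 445, 348 and 406 TPM, MKI67 at 549, 288 and 351 TPM and CCNA2 at 277, 529 and 370 TPM. CCNB1, a mitotic cyclin, was highest in replicate 2 and lowest in replicate 1, at 155, 420 and 241 TPM, as was CDK1 at 205, 354 and 269 TPM. Among the D cyclins, partners of CDK6, CCND3 stood at 207 ± 21.6 TPM and was named after its value was seen, and CCND1 had no read. CCND2 was the cyclin that separated the libraries, at 8, 493 and 479 reads or 0.213, 9.17 and 10.2 TPM. CDKN1A, the p21 inhibitor, was listed at 5, 2 and 1 reads.

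By gene type, protein-coding genes took 96.0%, 96.6% and 96.2% of sense gene reads, a mean of 96.3% ± 0.326 (SD, n = 3), and long non-coding genes 2.40% ± 0.303. Pseudogenes took 0.661% and T-cell receptor genes 0.153% on average. Over all types, 10156 of 19755 protein-coding genes and 2315 of 14423 long non-coding genes were detected, or 51.4% and 16.1%. Without replicate 1 the numbers were 10242 and 2501. Per length, the single most abundant RNA was RN7SL2, the RNA of the signal recognition particle, at 16272, 25752 and 30617 TPM, which is not polyadenylated.

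Histone genes led the nuclear protein-coding genes. The 71 replication-dependent histone genes, most of whose messages lack a poly(A) tail and are made in S phase, held 10.7%, 8.86% and 11.2% of all TPM but 1.67%, 1.41% and 1.78% of reads, since they are short; 59 of them were detected. HIST1H3B was the highest nuclear protein-coding gene at 11897, 8645 and 10992 TPM, followed by the linker histone genes HIST1H1B and HIST1H1C at 8369 ± 1132 and 8062 ± 1484 TPM. HIST1H2BK, HIST1H1E, HIST1H4C, HIST1H3F, HIST1H1D, HIST1H3C, HIST1H2AH, HIST1H2AE, HIST1H2AI and HIST1H2BO were also among the 20 highest nuclear protein-coding genes. The others were TMSB10 and TMSB4X, which bind actin monomers, at 7749 ± 491 and 3719 ± 750 TPM, ACTB at 4673 ± 1645, the elongation factor EEF1A1 at 4491 ± 974, the ribosomal protein RPS12 at 4175 ± 1172, the tubulin TUBB at 3109 ± 717 and GAPDH at 2820 ± 447 TPM. Many histone genes are near copies of each other, so reads that fit several are missing from these counts.

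Promoters differed along this scale of levels. The next windows show a TATAAA window and a CG-rich window: HIST1H2BK, the highest histone gene whose window holds both motifs, at 5603 TPM, and NOTCH1 at 209 TPM. The HIST1H2BK window is chr6:27146859-27147108, minus strand, and the NOTCH1 window chr9:136546049-136546298, minus strand; capitals mark TATAAA and CCAAT on either strand, as above.
HIST1H2BK: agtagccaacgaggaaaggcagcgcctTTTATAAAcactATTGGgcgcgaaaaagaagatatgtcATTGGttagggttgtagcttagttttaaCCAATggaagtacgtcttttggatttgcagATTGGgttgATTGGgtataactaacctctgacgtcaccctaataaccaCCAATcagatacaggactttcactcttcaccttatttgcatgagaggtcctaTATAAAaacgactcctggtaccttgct
NOTCH1: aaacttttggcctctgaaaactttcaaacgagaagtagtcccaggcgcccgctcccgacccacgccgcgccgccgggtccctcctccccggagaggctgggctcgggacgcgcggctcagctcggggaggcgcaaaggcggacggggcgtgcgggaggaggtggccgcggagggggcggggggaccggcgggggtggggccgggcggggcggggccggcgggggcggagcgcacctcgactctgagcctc
The histone window held 3 TATAAA, the nearest beginning 27 bases before the start, and 6 CCAAT over both strands; of the TATAAA matches 2 overlap. It ends 21 bases from the start of HIST1H2AH, which is read the other way at 3011 ± 382 TPM, against 5603 ± 867 TPM for HIST1H2BK. It held 7 CG dinucleotides, whereas the NOTCH1 window held 33 CG and neither motif.

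Of all protein-coding genes, 15287 of 19755 matched a RefSeq window by symbol, the first listed start being used. TATAAA was found in 16.9% of windows of genes with no read, in 10.1% of those with reads but a mean under 1 TPM, in 6.55% at 1 to 10 TPM, in 4.06% at 10 to 100 TPM and in 6.02% at 100 to 1000 TPM, against 9.12% of all matched genes. At 1000 TPM or more it was found in 25 of 60 windows, or 41.7%, and in 7 of 37, or 18.9%, once histone genes were left out. Histone genes themselves held TATAAA in 65.6% and CCAAT in 83.6% of their 61 windows. The median number of CG dinucleotides was 6 in the windows of genes with no read and 21 at 10 to 100 and at 100 to 1000 TPM. It was 13.5 at 1000 TPM or more, and 21 in that class without histone genes. A match describes the letters of the window and is not a measured site.

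**Figure D4:**
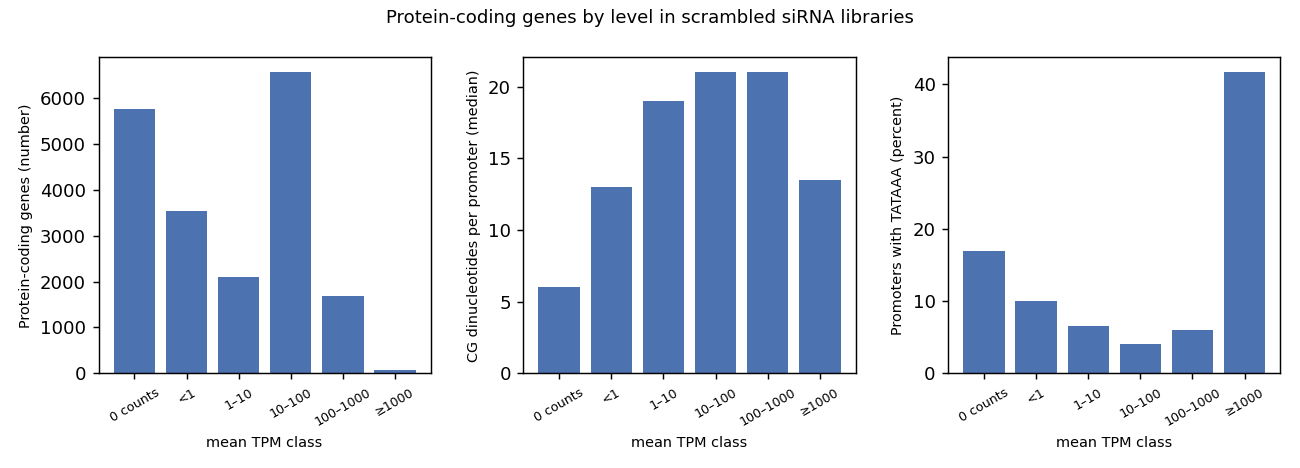
Bars give, for 6 classes of mean TPM, the number of protein-coding genes, the median number of CG dinucleotides in the 250 bases before the start, and the percent of these windows with TATAAA. Windows of unread genes hold 6 CG against 21 at 10 to 1000 TPM and 13.5 above that, and TATAAA is most frequent at 1000 TPM or more, at 41.7% of 60 windows.

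MALAT1, a nuclear RNA of most cells, was the highest long non-coding gene at 4241, 2201 and 2962 TPM. SNHG6, LRRC75A-AS1, NORAD and SNHG8, common RNAs of which several host small nucleolar RNAs, stood at 535 ± 128, 515 ± 111, 481 ± 74.0 and 334 ± 66.0 TPM. H19, an imprinted fetal RNA, stood at 497, 495 and 216 TPM, with replicate 3 as the low library. TRG-AS1, which lies in the gamma receptor locus on the other strand, stood at 279 ± 36.8 TPM. AL163932.1 stood at 354, 328 and 543 TPM; it lies on chromosome 14 at 98068240 to 98205143, minus strand, 964 kb from the nearer end of BCL11B.

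The 3 libraries ranked genes alike but differed beyond counting error. Over 15364 genes with a mean count of at least 10, Pearson's r of log2(CPM + 1) was 0.994 between replicates 2 and 3, 0.977 between replicates 1 and 2 and 0.983 between replicates 1 and 3; these are correlations across genes, which are not independent. Over the 10491 genes above a mean count of 100, the median coefficient of variation was 15.4%, where counting alone gives 2.99%. Without replicate 1 it was 8.37%. Replicates 2 and 3 differed by more than 2-fold in 54 genes (0.515%), replicates 1 and 2 in 828 (7.89%) and replicates 1 and 3 in 439 (4.18%). Replicate 1 was the highest of the 3 in 4487 genes and the lowest in 4413.

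The difference of replicate 1 followed the base composition of transcripts. In the quintile of genes with the lowest transcript GC content (median 38.1%), the median log2 ratio of replicate 1 to the mean of the others was -0.29, and it was -0.19, -0.03, 0.17 and 0.34 in the following quintiles, up to a median GC of 60.8%. The log2 ratio of replicate 2 to replicate 3 ran from 0.01 to -0.10 over the same quintiles. Spearman's rho between GC content and the ratio was 0.53 across 9456 genes of the same libraries. Genes past 2-fold higher in replicate 1 numbered 13 of 1892 in the lowest quintile and 192 of 1891 in the highest. Those past 2-fold lower numbered 25 and 3 in the same quintiles. Over all 10491 genes of any type with a mean count of at least 100, the shares were 4.46% higher and 0.829% lower. Cytosolic ribosomal protein genes were lower in replicate 1, with a median log2 ratio of -0.48 over 82 genes. The ratio of replicate 1 to the others also rose with exon length, with a Spearman's rho of 0.19. Its median was -0.10 in the quintile of shortest genes and 0.13 in that of the longest. The ratio of replicate 2 to replicate 3 ran the other way, from 0.06 to -0.13. How far base composition or length sets the differences named above was not tested.

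**Figure D5:**
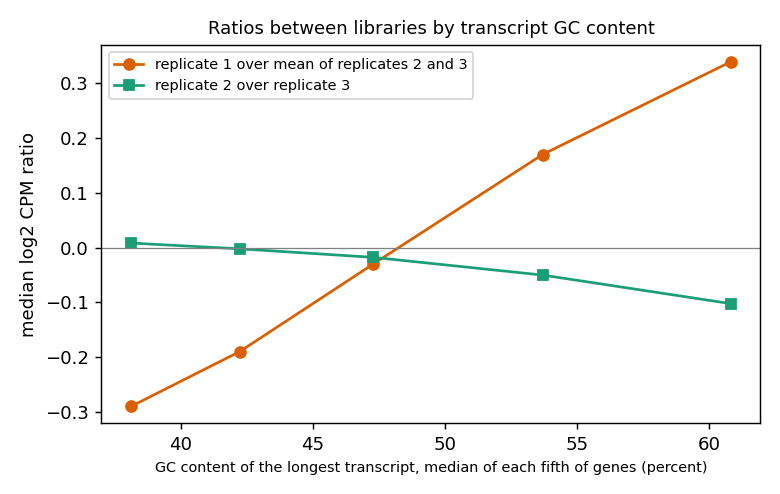
Median log2 CPM ratio in quintiles of nuclear protein-coding genes with a mean count of at least 100, against the median GC content of their longest transcript, for replicate 1 over the mean of replicates 2 and 3 (circles) and replicate 2 over replicate 3 (squares). The first line climbs from -0.29 to 0.34, and the second stays between 0.01 and -0.10.

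By coefficient of variation, the 10 genes with the widest spread were all highest in replicate 1, as were the 50 widest. This measure can rise further for a single high library than for a single low one, so the ranking favours genes high in a library. CCND2, at 8, 493 and 479 reads, reached 84.2%, against 138% for MT-TW, the widest. ATN1, a transcriptional co-repressor, gave 1099, 110 and 174 reads, NFIC, a transcription factor, 1843, 222 and 284, and PRR12 1389, 235 and 277. CBFA2T3, a co-repressor of blood cells, gave 834, 176 and 182 reads and PLBD2 238, 32 and 55. The pseudogenes AC243312.1 and MTND2P28 gave 391, 33 and 82 and 262, 52 and 50 reads. The remaining members of the 10 were the mitochondrial genes MT-TW, MT-CYB and MT-ND1.

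Mitochondrial protein genes took 1.02% of reads in replicate 1 and 0.450% and 0.458% in the others, but not evenly. MT-CYB gave 26614, 4437 and 4425 reads and MT-ND1 6195, 1305 and 1064. MT-CO3 was nearly level at 2174, 1786 and 1715 CPM. MT-ND3 and MT-ND6 went the other way, at 83.1, 193 and 143 CPM and at 7.10, 32.7 and 27.4 CPM. These mitochondrial genes, like the ones that follow, were named after their values were seen, except the 3 among the widest spreads.

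Some genes were lower in replicate 1 instead. Beside CCND2, PKIA, an inhibitor of protein kinase A, gave 5, 200 and 153 reads, SRGAP3, a GTPase-activating protein, 23, 169 and 225, and CHD7, a chromatin remodeller, 74, 421 and 593. CCND2 had the largest such difference, with a log2 ratio of -5.20, and PKIA followed at -4.24. Genes read at least 5 times in replicate 1 and never in the others numbered 133, against 41 and 29 for replicates 2 and 3, although replicate 1 had the fewest sense gene reads. Their highest count in replicate 1 was 41 reads. Conversely, 134 genes had no read in replicate 1 and at least 5 in both others, against 40 and 17. At the foot of the scale a count is given as listed: POLR2F, a subunit that every cell's RNA polymerases need, was listed at only 3, 2 and 1 reads. A count at or near 0, here or for the genes above with no read, therefore need not mean that the gene is silent.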

How the data were processed

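Per the submitters' processing notes the build was GRCh38; aligner, counter and counting annotation: not given in the sources used here. For each library the authors deposited raw counts by gene, without strand, for the sense strand and for the opposite strand. The sense column was used, and the first 4 lines, which name no gene, were left out. Of 58096 gene IDs, 57492 matched GENCODE 29 by ID and 604 did not. TPM used merged exon length over matched genes, and CPM all sense gene reads. No test was made. TMM factors and DESeq2 size factors (edgeR 4.0.16, DESeq2 1.42.0, R 4.3.3) served as alternatives, with Python 3.11.15; the scripts were tested on simulated data. Log2 ratios added 0.1 CPM, correlations 1 CPM. The members and lists were chosen with earlier results of these data known. Named were the 4 marker genes, and up to 8 highest members and 6 members under 1 TPM of each list. So were the 20 highest nuclear protein-coding and 8 highest long non-coding genes, the 3 highest V genes of a locus and detected HOX genes. The 10 widest spreads and the 5 genes with most opposite-strand relative to sense reads were also named. Further members under 1 TPM were named after their values were seen, and some members are not reported here by name.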

Additional observations from a re-analysis of the deposited data

Results flagged for a closer look

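The column of reads on the strand opposite to each gene was used for no level above. In it, 157 genes had at least 1000 reads in every library, and 139 of these had more opposite than sense reads; all but 4 of the 139 overlap an annotated gene on the other strand. The largest such signals relative to the sense reads lay across abundant genes: AL662797.1 had a mean of 19467 opposite-strand reads and lies across TUBB, LRRC75A had 6417 and lies across LRRC75A-AS1, AC116348.3 had 3581 and lies across ITGAL, and AL136988.1 had 3443 and lies across GALNT2.

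The 4 genes with no annotated gene on the other strand were named after their values were seen, save the pseudogene SOD1P3 as one of the 5 highest ratios. LINC00861, on chromosome 8 at 125922308 to 125951249, minus strand, had 25259, 20693 and 38678 opposite-strand reads in replicates 1, 2 and 3, a mean of 28210, against 68, 95 and 193 sense reads. That is 1195, 694 and 1480 CPM of plus-strand RNA, and only 53 annotated genes had a higher mean sense CPM. The pseudogene SOD1P3 lies 612 bases away on the same strand and had 5976, 3337 and 7991 opposite-strand reads, a mean of 5768, against 1, 0 and 1 sense reads. Both signals were lowest in replicate 2 and highest in replicate 3. The nearest annotated plus-strand gene to LINC00861, RNU6-442P, is 21.3 kb away and had no sense read in any library.

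CERKL, a ceramide kinase-like gene, had 1799, 2965 and 3323 opposite-strand reads, a mean of 2696, against 0, 6 and 3 sense reads; its annotated end lies 489 bases from that of ITGA4, which is read towards it with 11427, 13537 and 16577 sense reads. MT-ND5 had 5079, 4431 and 3643 opposite-strand reads, a mean of 4384, against 7920, 2805 and 2232 sense reads. The strands were thus near level on average, and sense reads were the more numerous in replicate 1. MT-ND5 borders MT-ND6 on the other strand. What produces these RNAs was not tested.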

How the results depend on the processing

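Of 70 values recomputed under other settings, 61 moved by less than the spread between replicates, or for counts by less than 1.5 times. That limit is wide for long non-coding genes. Their number detected, 2315, was 1774 at 2 TPM, 2904 by the mean over the 3 libraries and 3232 with unstranded counts. Protein-coding genes took 95.9% of unstranded reads. With the longest transcript as length TLX1 was at 198 TPM and BCL11B at 133 TPM, and with TPM over nuclear protein-coding genes only at 267 and 203 TPM. The lowest Pearson r was 0.991 with no count minimum and 0.950 at a mean count of at least 100. Leaving out each replicate in turn gave 10199 to 10279 detected protein-coding and 2410 to 2537 long non-coding genes, against 10156 and 2315 with all 3. Such counts can only stay or rise when a library is left out, so they are no check of stability. The other ranges were 96.1% to 96.4% of reads in protein-coding genes and 212 to 232 TPM for TLX1. They were 146 to 222 TPM for CD3E, 149 to 245 TPM for NOTCH1, 160 to 179 TPM for BCL11B, 0.977 to 0.994 for the lowest r, and 8.37% to 17.5% for the median coefficient of variation. Of the counts of detected genes in 17 lists, recomputed without replicate 1 as a choice made after seeing the data, 14 did not change. No paired analysis was possible because the results come from no test and use 1 group. Reads that map to several places or to overlapping genes are missing from the counts, which limits histone, receptor and other multicopy genes.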

Other observations

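Genes that set the threshold for cell death were read on both sides of the balance. Of 14 apoptosis regulators 12 were detected, with a median of 46.4 TPM. Among protectors MCL1 stood at 216, 295 and 278 TPM, BCL2 at 90.2, 88.5 and 91.8 TPM and BCL2L1, which encodes BCL-XL, at 104, 68.6 and 65.6 TPM. Among promoters of death PMAIP1, which antagonises MCL1, stood at 134, 203 and 204 TPM, BMF at 58.9 ± 7.30, BID at 53.2 ± 6.89, BAK1 at 49.8 ± 2.58 and BCL2L11, which encodes BIM, at 42.9 ± 12.7 TPM. BCL2 had the narrowest spread of these. BBC3, which encodes PUMA and is a target of p53, was listed at 7, 9 and 3 reads, and HRK at 0 in each library.

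Genes annotated as small RNAs were also read at high levels per length. SNORA73B, a small nucleolar RNA, stood at 4118, 4248 and 4107 TPM with nearly equal levels, the Cajal body RNA SCARNA13 at 1546, 2443 and 2173 TPM, and the spliceosomal RNA RNU4-2 at 2514, 1642 and 1148 TPM. RNU4-2 was highest in replicate 1 and SCARNA13 lowest. The small RNA genes named here were chosen after their values were seen. SNORA73B and SCARNA13 overlap 2 and 1 annotated genes on the same strand. Gene counts do not tell the small RNA from a longer transcript of the same region.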
